A study of Mus musculus with 46 samples.

Results

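The transcriptome of kidney macrophages was compared between mice whose obstructed ureter had been reconnected (rUUO) and mice whose ureter was still obstructed (unilateral ureteral obstruction, UUO). The members are the 7 columns of sorted F4/80+ cells named for these groups, UUO replicates 1, 2, 3 and 4 and rUUO replicates 1, 4 and 6, out of 44 sorted samples that have a column of their own name and 46 in the labels. Values are FPKM, in which the fragments of a gene are divided by its length and by the sequencing depth of the sample. The mice were wild-type male C57BL/6 aged 8 to 12 weeks. UUO mice had a laparotomy and obstruction of the ureter, and rUUO mice had the same operation followed by re-implantation of the ureter. In the methods UUO mice were culled on day 2 or day 7 and rUUO mice 14 days after reversal, and the sample labels do not say which day the UUO samples are from. Reversal and time since obstruction therefore cannot be told apart in this comparison. Macrophages of 4 sham-operated mice, sorted in the same way, give the reference level. Proximal tubular (PT), endothelial and stromal cells sorted from rUUO and UUO kidneys, 22 samples in all, were used only to compare the size of a change with that in macrophages.

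Macrophages of the kidney comprise long-lived resident cells, marked by high F4/80, MHC class II and complement C1q, and cells that derive from blood monocytes entering through the CCR2 receptor after injury. Obstruction is known to recruit monocytes and to induce cytokines, chemokines and matrix-remodelling enzymes, and relief of obstruction is followed by partial repair. Recruited monocytes lose Ly6c2, Ccr2 and Chil3 as they mature into macrophages.

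The sorted samples carried the markers of their gate. Adgre1, which encodes F4/80, had 191, 152, 215 and 208 FPKM in UUO replicates 1 to 4 and 198, 214 and 217 FPKM in rUUO replicates 1, 4 and 6, against at most 1.54 FPKM in any UUO or rUUO sample of the other populations. Csf1r, the receptor for the macrophage growth factor CSF1, lay between 372 and 525 FPKM in UUO and between 389 and 425 FPKM in rUUO macrophages. Ptprc, the leukocyte antigen CD45, lay between 156 and 309 FPKM in UUO and between 155 and 179.8 FPKM in rUUO macrophages. None of these markers separated the groups, and their log2 changes were 0.14 ± 0.17, -0.12 ± 0.16 and -0.37 ± 0.20 (SE). The sign of the Csf1r change turned to 0.02 after quantile normalization.

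Sequencing depth is not known in reads, because the table holds no counts. An estimate of relative depth from the steps in low values of short genes with a single exon, scaled so that the middle of the 44 samples is 1, gave 0.78 to 0.90 in UUO and 0.95 to 1.02 in rUUO macrophages, so the groups did not overlap. UUO replicate 2 stood apart from the other UUO samples. Its share of FPKM from the 37 genes of the mitochondrial genome was 37.8%, against 22.6% to 26.4% in the other UUO samples and 20.4% to 23.5% in rUUO. The mean share was 5.63 percentage points lower in rUUO (exact two-sided permutation test, p = 0.2, n = 4 and 3, smallest possible p = 0.0286), and 2.18 points lower without UUO replicate 2. C1qa, a subunit of complement C1q, had 176 FPKM in that sample and 1355 to 1621 FPKM in the other UUO samples, whereas C1qb and C1qc were 2514 and 1199 FPKM there, against 3149 to 3920.2 and 1649 to 1717 FPKM. For macrophage lists in which the omission of this sample moved the number of members separated in 1 direction by 2 or more, or turned the sign of the median, counts or medians without it are therefore also given.

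No gene passed the threshold in the macrophage samples alone. With limma on log2(FPKM + 1) in the 11 macrophage samples, 0 of 13332 genes (0%) had a Benjamini-Hochberg adjusted p under 0.05. Of these genes 945 had an unadjusted p under 0.05, 456 of them higher and 489 lower in rUUO, and the smallest adjusted p by limma was 0.056. Without UUO replicate 2 the count was 13, of which 8 were copies of the U3 RNA gene Rnu3b described further on, and without UUO replicate 3 it was 4. In simulated data of the same size, 79 of 100 genes with a log2 change of 2 and 19 of 100 with a log2 change of 1 were found. The share of changes of these sizes that is found in the measured macrophage samples was not tested. When limma was fitted on all 4 populations, which share a smaller estimate of the spread, 47 genes (0.353% of those tested) were called higher in rUUO macrophages and 39 (0.293%) lower. Of these 86 genes, 69 varied more between macrophage samples than between samples of the other populations, so that the pooled spread understates theirs. Among all genes tested, 55.4% had more spread in macrophages. In the macrophage fit 85 of the 86 genes had an unadjusted p under 0.05 by limma. This is not separate support, since both fits take the same change from the same 7 samples. With each of the 7 samples left out in turn, 22 of the 86 genes were called every time, among them Mmp12, Il1a, Il2ra, Pla2g2d, Cdc42ep2, Chil3, Fcmr, Cd300lb and Trim30c. Every other called gene named here lost its call without at least 1 sample, and Ccnd3, Atg16l2 and Hist1h4n were called in 1 of the 7 fits. In what follows "called" means past the threshold in this wider fit, and adjusted p values of both fits are given. A second description needs no estimate of the spread. In 460 genes (3.45%) every rUUO sample was above every UUO sample and in 490 genes (3.68%) every rUUO sample was below, and without UUO replicate 2 these were 662 genes (4.97%) and 1049 genes (7.87%). Over all genes tested, the median log2 change came to -0.02. Since whole sorted populations were measured, fewer cells of a kind and less RNA per cell cannot be told apart.

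Inflammatory cytokine genes were higher in rUUO than in UUO macrophages. Of 14 members of the cytokine and inflammasome list that were tested, 10 were higher and 4 lower, the median log2 change was 0.42, and in 5 (Il1a, Il1b, Tnf, Il1rn and Tnfaip3) every rUUO sample was above every UUO sample. These 5 were 35.7% of the list, against 3.45% of all genes. The list held 5 such genes without UUO replicate 2 (35.7%, against 4.97% of all genes). After rescaling to equal sums it held 6 (42.9%, against 4.34%). Il1b, which encodes interleukin-1 beta, had 186, 130.1, 275 and 198 FPKM in UUO and 385, 573 and 457 FPKM in rUUO. All rUUO samples were above the highest UUO sample and above the highest sham sample, as sham ranged from 114 to 200.3 FPKM. The log2 change of Il1b was 1.28 ± 0.26 (SE), with limma adjusted p = 0.127 in macrophages and 0.131 on 4 populations. Il1a, the related cytokine interleukin-1 alpha, had 3.79, 1.05, 3.64 and 1.34 FPKM in UUO, 12.1, 7.21 and 9.04 FPKM in rUUO and at most 0.36 FPKM in sham. It was the only member of the list to be called, with a log2 change of 1.67 ± 0.40 (SE) and limma adjusted p = 0.285 in macrophages and 0.00148 on 4 populations. Il1rn, the antagonist of the interleukin-1 receptor, had 50.6, 32.8, 44.9 and 31.7 FPKM in UUO and 101, 87.1 and 73.9 FPKM in rUUO, so that the inhibitor was high in the same samples as the ligands. Tnf had 19.6, 11.3, 21.7 and 25.1 FPKM in UUO and 36.9, 51.3 and 31.7 FPKM in rUUO, and Tnfaip3, an inhibitor of NF-kappaB signalling, had 16.9, 25.4, 44.9 and 28.6 FPKM in UUO and 64.3, 52.6 and 63.1 FPKM in rUUO. Il18, another cytokine of the interleukin-1 family, went the other way, from 3.60 to 18.1 FPKM in UUO to 2.54 to 5.38 FPKM in rUUO, with overlapping groups. Summed over the 18 genes of the list, the level was 403 to 689.6 FPKM in UUO, 803 to 1046 FPKM in rUUO and 281 to 415 FPKM in sham, so that rUUO samples were above both other groups, which overlapped with each other.

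**Figure D1:**
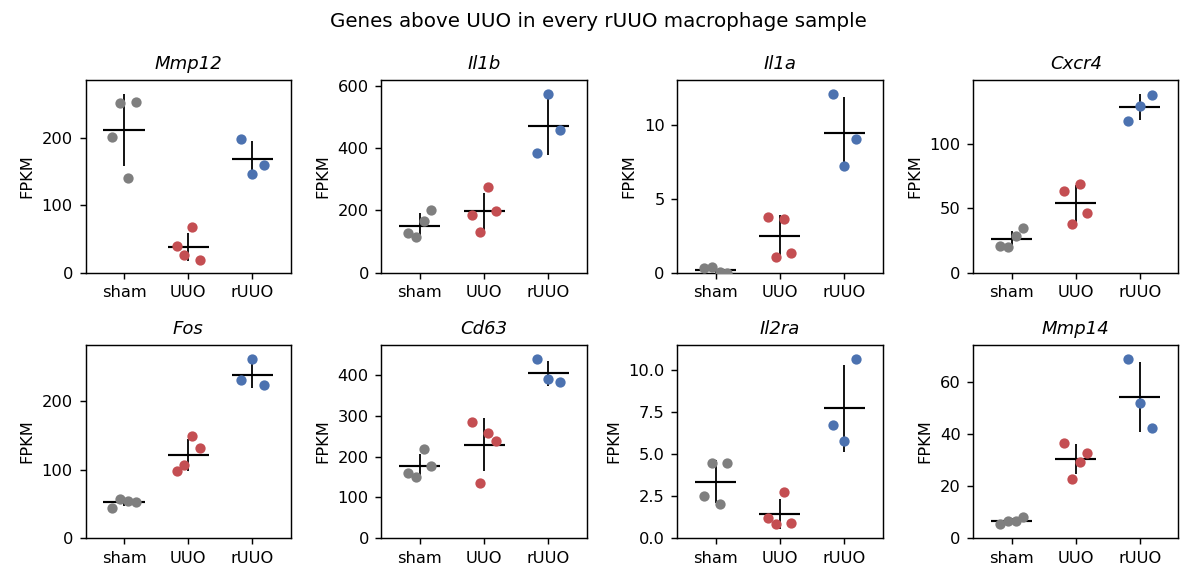
Each panel plots the FPKM of 1 gene on a linear axis from 0 in 4 sham, 4 UUO and 3 rUUO macrophage samples; points are samples, horizontal lines means and vertical lines SD. In all 8 genes the lowest rUUO point is above the highest UUO point. Mmp12 in rUUO lies within the sham range, whereas Il1b, Il1a, Cxcr4, Fos, Cd63, Il2ra and Mmp14 in rUUO lie above every sham sample.

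Immediate early genes, which encode transcription factors and feedback regulators induced within minutes of many stimuli, tissue dissociation among them, were higher in nearly every case. Of 25 members tested 24 were higher in rUUO and 1 lower, with a median log2 change of 0.59, and 9 (Fos, Fosb, Fosl2, Egr1, Atf3, Nr4a3, Zfp36, Dusp1 and Klf4) were above UUO in every rUUO sample, or 11 without UUO replicate 2. The 9 were 36% of the list, against 3.45% of all genes, and the 11 were 44%, against 4.97%. None was called by limma in either fit, and in macrophages 11 of the higher members and the lower one had an unadjusted p under 0.05. Of all 13332 genes tested, 456 higher and 489 lower ones did. Fos, a subunit of the AP-1 factor, had 98.0, 107, 149.9 and 132 FPKM in UUO and 232, 262 and 225 FPKM in rUUO, and 43.9 to 57.3 FPKM in sham. Its log2 change was 0.99 ± 0.18 (SE), with limma adjusted p = 0.127 in macrophages and 0.096 on 4 populations. Fosb, its homologue, had 46.8, 34.5, 54.7 and 50.5 FPKM in UUO and 112, 108 and 94.8 FPKM in rUUO. Atf3, a stress-induced factor, had 50.4, 40.4, 47.7 and 49.8 FPKM in UUO and 74.8, 124 and 94.5 FPKM in rUUO. In Fos, Fosb and Atf3 every sham sample was below every UUO sample. Zfp36, which promotes decay of cytokine mRNA, had 498 to 718 FPKM in UUO and 792 to 992 FPKM in rUUO. Myc was the exception, with 19.7, 30.4, 21.6 and 28.0 FPKM in UUO and 16.2, 11.4 and 15.7 FPKM in rUUO, both below the 35.7 to 48.7 FPKM of sham. Over the 26 genes of the list the summed level was 942 to 1275 FPKM in sham, 1768 to 2479 FPKM in UUO and 2833 to 3566 FPKM in rUUO. Heat shock genes, which respond to the same kinds of stimulus, were higher in 7 of 8 members with a median log2 change of 0.43, and their sums overlapped, at 1171 to 1904 FPKM in UUO and 1544 to 1923 FPKM in rUUO. The part of handling during dissociation and sorting in these values was not tested.

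Genes of the macrophage state marked by TREM2, which is known from lipid-rich and injured tissue, and genes that remodel matrix were higher in part. In the TREM2 list 14 of 18 members were higher (median log2 change 0.32, or 0.14 with 13 of 18 higher without UUO replicate 2), and Lgals3, Cd9, Cd63, Itgax and Mmp12 were above UUO in every rUUO sample. These 5 were 27.8% of the list, against 3.45% of all genes. Mmp12, macrophage elastase, had the lowest adjusted p of these genes. It had 39.7, 26.9, 67.4 and 18.6 FPKM in UUO and 199, 147 and 159 FPKM in rUUO, and sham macrophages had 139.6 to 253 FPKM, so that rUUO samples lay within the sham range and every UUO sample below it. The log2 change was 2.26 ± 0.34 (SE), with limma adjusted p = 0.0831 in macrophages, under the threshold after rescaling to equal sums or quantile normalization, and 2.64e-05 on 4 populations. Cd63, a tetraspanin of late endosomes, had 286, 136, 258 and 237 FPKM in UUO and 439.7, 391 and 384 FPKM in rUUO and was called (0.87 ± 0.23, SE, limma adjusted p = 0.0382 on 4 populations and 0.343 in macrophages). UUO replicate 2 was the lowest UUO sample for Cd63 and for Lgals3, the secreted lectin galectin-3, which had 110.0, 33.3, 101 and 98.8 FPKM in UUO and 145, 151 and 115 FPKM in rUUO. Trem2 itself overlapped between the groups, at 35.6 to 66.0 FPKM in UUO and 53.0 to 71.96 FPKM in rUUO, both above the 9.94 to 16.8 FPKM of sham. Gpnmb and Spp1, also of this state, overlapped as well, Spp1 with 133 to 284 FPKM in UUO and 97.7 to 222 FPKM in rUUO.

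Of 23 matrix and growth factor genes tested, 14 were higher and 9 lower (median log2 change 0.15), and 6 were above UUO in every rUUO sample and 0 below. The 6 were 26.1% of the list, against 3.45% of all genes. Without UUO replicate 2 the list had 11 higher and 12 lower members (median -0.02), with 7 above and 2 (Mmp13 and Grn) below. Those 7 were 30.4% of the list, against 4.97% of all genes, and those 2 were 8.7%, near the 7.87% of all genes. Mmp12, Mmp14, Plaur, Pdgfa and Gdf15 were among the 6. Mmp14, a membrane-bound collagenase, had 36.3, 22.6, 29.2 and 32.6 FPKM in UUO and 68.6, 51.8 and 42.2 FPKM in rUUO, whereas sham had only 5.30 to 7.88 FPKM. Pdgfa, a ligand for receptors on stromal cells, had 8.91, 5.99, 8.32 and 6.83 FPKM in UUO and 13.6, 14.1 and 10.6 FPKM in rUUO. Gdf15, a stress-induced cytokine, had 2.06, 0.40, 3.91 and 2.47 FPKM in UUO and 11.8, 6.43 and 9.04 FPKM in rUUO and at most 0.15 FPKM in sham. Plaur, the receptor of the urokinase plasminogen activator, had 14.4 to 19.3 FPKM in rUUO against 1.24 to 12.2 FPKM in UUO. Apart from Mmp12 no member of the list was called.

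Monocyte genes were lower in rUUO macrophages. Of 16 members 14 were lower and 2 higher, and the median log2 change was -0.75 (-0.87 without UUO replicate 2). Ccr2, F13a1, Chil3, Ms4a4c and Gda were below UUO in every rUUO sample (31.2%, against 3.68% of all genes). Without UUO replicate 2, 7 members were (43.8%, against 7.87%). Changes ranged from -1.65 to 1.48, so the list did not fall as a whole. In macrophages 1 higher and 6 lower members had an unadjusted p under 0.05 by limma. F13a1, Chil3 and Ms4a4c were called. Ccr2, the receptor through which monocytes leave the blood, had 224, 241, 241 and 199 FPKM in UUO and 129, 118 and 142 FPKM in rUUO. Sham had 50.2 to 87.7 FPKM, so that rUUO samples lay between the 2 other groups without overlap. The log2 change was -0.80 ± 0.20 (SE), with limma adjusted p = 0.303 in macrophages and 0.0885 on 4 populations. F13a1, the A subunit of coagulation factor XIII, had 56.9, 25.4, 14.6 and 57.3 FPKM in UUO and 13.3, 5.60 and 12.9 FPKM in rUUO (-1.65 ± 0.51, SE, limma adjusted p = 0.0154 on 4 populations and 0.439 in macrophages). Chil3, a chitinase-like protein of monocytes and alternatively activated macrophages, had 6.96, 2.37, 2.74 and 2.55 FPKM in UUO and 0.27, 0.37 and 0.86 FPKM in rUUO (-1.55 ± 0.48, SE, limma adjusted p = 0.00138 on 4 populations and 0.439 in macrophages). Ms4a4c had 59.1, 66.6, 24.5 and 39.0 FPKM in UUO and 15.7, 16.2 and 20.1 FPKM in rUUO, and sham ranged from 11.7 to 27.8 FPKM. Ly6c2 and Plac8, which mark classical monocytes, overlapped, with 0.74 to 11.7 and 7.93 to 19.5 FPKM in UUO and 1.45 to 6.29 and 5.69 to 11.3 FPKM in rUUO. Over the whole list the summed level was 445 to 731 FPKM in UUO, 300.0 to 432 FPKM in rUUO and 160 to 229 FPKM in sham. As deposited, sums of all rUUO samples lay between those of UUO and sham, as for Ccr2. The lowest UUO sum (445 FPKM, replicate 2) was close to the highest rUUO sum (432 FPKM, replicate 6). Total FPKM of these samples were 783398 and 733512, and the order of the sums was not tested after rescaling. Neutrophil markers were also lower in 4 of 5 genes tested, with sums of 60.2 to 256 FPKM in UUO and 106 to 135 FPKM in rUUO, and their part in the monocyte values was not tested.

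**Figure D2:**
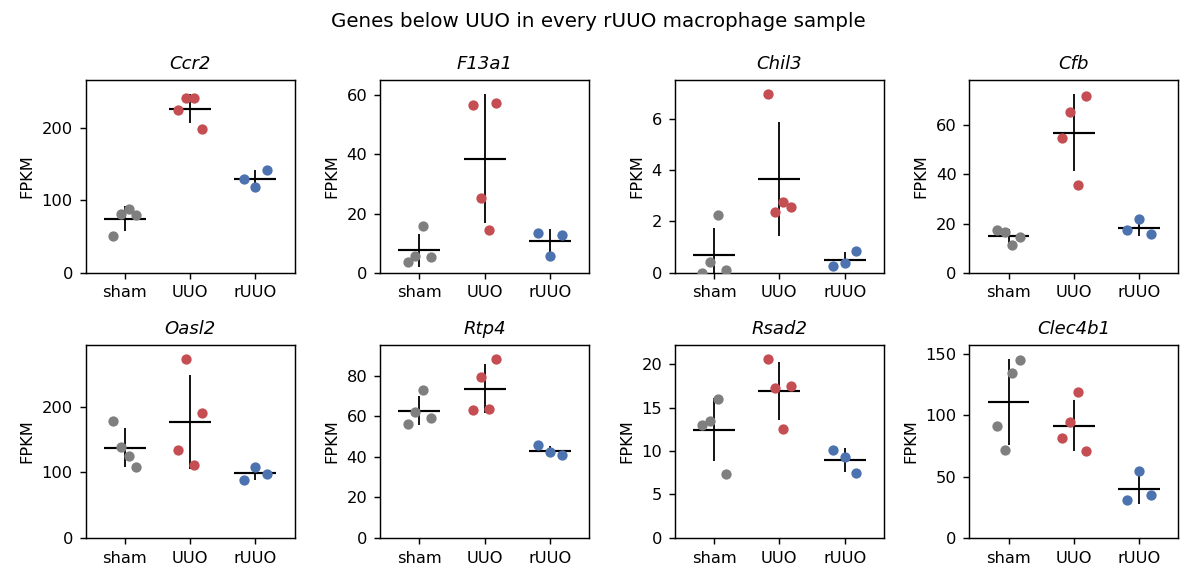
Each panel plots the FPKM of 1 gene on a linear axis from 0 in 4 sham, 4 UUO and 3 rUUO macrophage samples; points are samples, horizontal lines means and vertical lines SD. In all 8 genes the highest rUUO point is below the lowest UUO point, and Ccr2 in rUUO lies between UUO and sham, whereas Rtp4 in rUUO lies below every sham sample.

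Interferon-stimulated genes, which are induced by type I interferon and encode antiviral proteins, were lower in 29 of 30 members. The median log2 change was -0.54, and in 10 members (Usp18, Oasl2, Oas1a, Oas2, Mx1, Rsad2, Zbp1, Ifi204, Rtp4 and Trim30a) every rUUO sample was below every UUO sample. These 10 were 33.3% of the list, against 3.68% of all genes. The count depended on the scaling, with 12 without UUO replicate 2 but 5 after rescaling to equal sums and 4 after quantile normalization, where the list's median was -0.47 in either case. Shares in these settings were 40%, 16.7% and 13.3% of the list, against 7.87%, 2.66% and 3.29% of all genes. None was called by limma in either fit, and 14 of the lower members had an unadjusted p under 0.05 in macrophages. Of all 13332 genes tested, 489 lower ones did. Rtp4, a chaperone of membrane receptors, had 63.2, 79.1, 63.7 and 88.1 FPKM in UUO and 45.7, 42.2 and 41.1 FPKM in rUUO, and sham had 56.3 to 72.9 FPKM. Its log2 change was -0.75 ± 0.18 (SE), with limma adjusted p = 0.298 in macrophages and 0.475 on 4 populations. Oasl2, of the oligoadenylate synthetase family, had 134, 273, 111 and 191 FPKM in UUO and 88.5, 109 and 97.8 FPKM in rUUO. The highest UUO value of Oasl2 was that of replicate 2, and the same held for Mx1, a GTPase that restricts viruses, with 17.1, 33.3, 12.3 and 19.4 FPKM in UUO and 6.30, 12.2 and 11.9 FPKM in rUUO. Rsad2, which encodes viperin, had 20.6, 17.2, 12.5 and 17.4 FPKM in UUO and 10.2, 9.31 and 7.51 FPKM in rUUO, and Usp18, which removes ISG15 from proteins, had 13.5, 13.4, 10.6 and 16.1 FPKM in UUO and 8.58, 7.92 and 4.15 FPKM in rUUO. Isg15 itself overlapped, from 18.9 to 63.0 FPKM in UUO and from 15.4 to 40.8 FPKM in rUUO. The summed level of the list was 1163 to 1771 FPKM in UUO, 951 to 1076 FPKM in rUUO and 1133 to 1284 FPKM in sham, so rUUO samples were below both other groups.

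The upstream bases of these genes are shown because the members were low together and genes of this kind are known to carry a shared regulatory element. The core of this interferon-stimulated response element was searched here as GAAA, any 2 bases and GAAA, or TTTC, any 2 bases and TTTC for the other strand, in the 250 bases before the start of each gene in RefSeq (GRCm38.p6). Overlapping matches were each counted and are printed as 1 run of capitals. It was found in 12 of 22 list members with an entry (54.5%), against 936 of 27025 gene symbols (3.46%). Of the genes tested that have an entry, 337 of 9061 (3.72%) held it, 28 of 359 (7.80%) of those below UUO in every rUUO sample and 13 of 315 (4.13%) of those above. A match describes letters and not a bound site. The sequences of the 3 members with a match that were below UUO in every rUUO sample follow with that of Isg15, whose groups overlapped, all on the minus strand and written 5′ to 3′ along the gene, with the matches in capitals.
Oas1a, chr5:120907526-120907775: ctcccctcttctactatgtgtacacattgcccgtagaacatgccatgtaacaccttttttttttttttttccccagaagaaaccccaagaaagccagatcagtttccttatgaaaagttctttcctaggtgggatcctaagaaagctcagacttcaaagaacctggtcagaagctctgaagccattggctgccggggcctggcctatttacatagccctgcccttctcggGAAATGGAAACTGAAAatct
Rsad2, chr12:26456453-26456702: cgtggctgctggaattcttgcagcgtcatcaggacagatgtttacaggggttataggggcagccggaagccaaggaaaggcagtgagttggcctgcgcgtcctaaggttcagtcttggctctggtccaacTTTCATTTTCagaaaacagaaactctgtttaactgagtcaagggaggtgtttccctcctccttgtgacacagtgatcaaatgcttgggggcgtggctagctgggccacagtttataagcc
Trim30a, chr7:104465194-104465443: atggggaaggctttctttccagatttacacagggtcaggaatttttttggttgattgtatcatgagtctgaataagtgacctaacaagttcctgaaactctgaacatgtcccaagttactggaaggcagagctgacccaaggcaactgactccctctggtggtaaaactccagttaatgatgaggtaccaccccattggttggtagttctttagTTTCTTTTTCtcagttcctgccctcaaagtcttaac
Isg15, chr4:156200819-156201068: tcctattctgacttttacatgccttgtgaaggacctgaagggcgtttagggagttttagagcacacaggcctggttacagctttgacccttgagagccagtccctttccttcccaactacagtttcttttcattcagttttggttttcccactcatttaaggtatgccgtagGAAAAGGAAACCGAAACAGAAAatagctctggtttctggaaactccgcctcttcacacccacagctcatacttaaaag
In Oas1a the last match began 14 bases before the start, with 35.9, 33.1, 47.0 and 51.0 FPKM in UUO and 21.2, 31.4 and 24.2 FPKM in rUUO macrophages. Trim30a, with its match beginning 36 bases before the start, had 118, 149, 94.5 and 153 FPKM in UUO and 89.9, 81.7 and 94.4 FPKM in rUUO. Rsad2 held 1 match 120 bases before the start, and Isg15 held 3 overlapping matches, the last beginning 66 bases before it.

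Chemokines, complement and chemokine receptors lay in both directions. Of 20 chemokine genes 10 were higher and 10 lower, and Ccl2, Ccl9 and Ccl12, ligands that attract monocytes, were below UUO in every rUUO sample. These were 15% of the list, against 3.68% of all genes. Without UUO replicate 2, 13 were lower and Ccl7 and Pf4 were below as well, which made 5 of 20 (25%, against 7.87% of all genes). Ccl2, the main ligand of CCR2, had 151, 105, 117 and 121 FPKM in UUO and 81.3, 83.4 and 78.2 FPKM in rUUO, and sham had 12.7 to 29.4 FPKM. Ccl12, a further CCR2 ligand, had 287, 224, 212 and 321 FPKM in UUO and 167, 184 and 151 FPKM in rUUO, so that the receptor and both of these ligands were lower. The 10 higher chemokines included Ccl8, at 93.7 to 322 FPKM in UUO and 243 to 331 FPKM in rUUO. Ccl3 was also higher, at 162 to 260 FPKM in UUO and 183 to 314 FPKM in rUUO. Both overlapped between the groups. Cxcl13, which attracts B cells, was the member above UUO in every rUUO sample, but through values of 1.16, 1.11 and 11.9 FPKM, of which 1 sample gave most of the difference. A single member above was 5% of the list, near the 3.45% of all genes. Cxcr4, the receptor for CXCL12, had 63.3, 37.9, 68.6 and 46.1 FPKM in UUO and 118, 129 and 138 FPKM in rUUO, against 19.97 to 34.4 FPKM in sham, with a log2 change of 1.27 ± 0.24 (SE) and limma adjusted p = 0.127 in macrophages and 0.116 on 4 populations. Ccr1 was called lower although its groups overlapped, with 19.8, 3.87, 13.8 and 10.5 FPKM in UUO and 3.17, 5.44 and 2.36 FPKM in rUUO, and the lowest UUO value was that of replicate 2, without which they were separated.

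Among 16 complement genes 8 were higher and 8 lower. Cfb and C2, which form the convertases of the alternative and the classical pathway, and Cfp, properdin, which stabilises the alternative convertase, were below UUO in every rUUO sample. These 3 were 18.8% of the list, against 3.68% of all genes, and 2 members (12.5%, against 3.45%) were above. Cfb had 54.9, 65.4, 35.7 and 71.7 FPKM in UUO and 17.5, 21.9 and 15.6 FPKM in rUUO, near the 11.3 to 17.5 FPKM of sham. The log2 change was -1.55 ± 0.26 (SE), with limma adjusted p = 0.089 in macrophages and 0.17 on 4 populations, and it passed the threshold in the macrophage fit without UUO replicate 3. Cfp had 97.2, 93.5, 52.2 and 86.0 FPKM in UUO and 40.2, 36.1 and 50.2 FPKM in rUUO.

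MHC class II genes, which present antigen to CD4+ T cells, overlapped between UUO and rUUO. Of 15 MHC class II genes tested 11 were higher in rUUO, the median log2 change was 0.13 (0.01 without UUO replicate 2), and no member was separated in this scaling. H2-Aa, the alpha chain of I-A, had 10187, 5644, 12105 and 10581 FPKM in UUO and 10474, 12232 and 12264 FPKM in rUUO, and sham had 15544 to 19462 FPKM. H2-Ab1, the beta chain, had 5702 to 7645 FPKM in UUO and 6582 to 8529.7 FPKM in rUUO, with a log2 change of 0.15 ± 0.20 (SE) that turned to -0.03 after quantile normalization. Over the 16 genes of the list the summed level was 29778 to 40902 FPKM in UUO, 37712 to 43534 FPKM in rUUO and 56339 to 70497 FPKM in sham, so both operated groups were below every sham sample.

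Macrophage identity genes had a median log2 change of 0.02 over 14 members tested (-0.19 without UUO replicate 2, where Laptm5 was below UUO beside Cd53), with Mertk, Cd14 and Lyz2 above and Cd53 below UUO in every rUUO sample. The 3 above were 21.4% of the list, against 3.45% of all genes, and the 1 below was 7.14%, against 3.68%. Without UUO replicate 2 the 2 below were 14.3%, against 7.87%. Mertk, a receptor for apoptotic cells, had 11.8, 15.0, 16.5 and 17.5 FPKM in UUO and 21.9, 19.8 and 18.7 FPKM in rUUO, and Cd14, the lipopolysaccharide co-receptor, had 187, 105, 254 and 213 FPKM in UUO and 283, 322 and 259.8 FPKM in rUUO. Resident macrophage genes had a median of 0.01 over 13 members. Cd4, present on part of the resident macrophages, was called higher, with 21.4, 16.8, 27.5 and 22.9 FPKM in UUO and 40.5, 45.1 and 50.8 FPKM in rUUO (1.02 ± 0.21, SE, limma adjusted p = 0.0227 on 4 populations and 0.135 in macrophages). Lyve1, a hyaluronan receptor of perivascular macrophages, was called lower with overlapping groups, at 20.5, 9.25, 0.22 and 18.8 FPKM in UUO and 1.41, 0.12 and 0.11 FPKM in rUUO, and Folr2, of the same cells, had 35.1, 15.8, 3.18 and 62.9 FPKM in UUO and 10.7, 1.57 and 5.95 FPKM in rUUO. The lowest UUO value of both was that of replicate 3. Of 12 alternative activation genes 8 were lower, and Chil3 and Clec10a were called. These 2 (16.7%, against 3.68% of all genes) were below UUO in every rUUO sample. Without UUO replicate 2 Arg1 and Il4ra were as well (33.3%, against 7.87%). Clec10a, a lectin, had 20.4, 22.6, 20.7 and 28.7 FPKM in UUO and 6.63, 17.1 and 10.6 FPKM in rUUO, whereas Mrc1, the mannose receptor, overlapped at 235 to 275 FPKM in UUO and 233 to 245 FPKM in rUUO. Arg1, arginase, was 79.8 FPKM in UUO replicate 1, 10.1 to 15.8 FPKM in the other UUO samples and 12.3, 1.92 and 3.83 FPKM in rUUO, again with overlap.

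Genes for uptake and metabolism gave few separated members, and their number depended on UUO replicate 2. Of 20 phagocytosis genes Mertk and Cd36 were above and Stab1 below UUO in every rUUO sample. These were 10% above, against 3.45% of all genes, and 5% below, near the 3.68% of all genes. Without UUO replicate 2, 5 of 20 (25%, against 7.87% of all genes) were below, with Gas6, Itgb5, Lrp1 and Fcgr3 beside Stab1, and 2 above. Cd36, a scavenger receptor for lipids, had 48.7, 43.3, 62.4 and 62.0 FPKM in UUO and 83.6, 85.2 and 88.5 FPKM in rUUO, against 154 to 242 FPKM in sham. Among 13 iron and haem genes Fth1, the ferritin heavy chain, had 5441, 4054, 5574 and 4612 FPKM in UUO and 7276, 7953 and 6948 FPKM in rUUO and was the 1 member separated, also without UUO replicate 2. That was 7.69% of the list, against 3.45% of all genes. The summed level of the iron and haem list was 6593 to 11244 FPKM in UUO, 12113 to 13086 FPKM in rUUO and 6265 to 8371 FPKM in sham, although 8 of the 13 genes tested were lower in rUUO. Among 21 glycolysis and hypoxia genes 14 were lower (median log2 change -0.17), or 17 without UUO replicate 2 (median -0.32). Ldha was the 1 member below UUO in every rUUO sample (4.76%, near the 3.68% of all genes). Without UUO replicate 2 Hk1, Eno1, Pkm and Bnip3 joined it, which made 5 of 21 (23.8%, against 7.87% of all genes). Ldha, lactate dehydrogenase A, had 152, 159.8, 152 and 168 FPKM in UUO and 103, 113 and 94.8 FPKM in rUUO, the latter within the range of sham (88.0 to 129.7 FPKM). Of 9 lysosomal protease genes Ctsc was the 1 member below UUO in every rUUO sample, at 416 to 502 FPKM in rUUO and 509 to 575 FPKM in UUO. That was 11.1% of the list, against 3.68% of all genes. Without UUO replicate 2, Ctsh and Lgmn were below too (3 of 9, 33.3%, against 7.87%), and the median log2 change of the list was -0.14 in place of 0.02.

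Cell cycle genes were lower in 29 of 37 members with a median of -0.25 (31 members and -0.41 without UUO replicate 2). Their summed level was 460 to 636 FPKM in UUO, 387 to 453 FPKM in rUUO and 253 to 307 FPKM in sham, so that rUUO samples lay between the 2 other groups without overlap. Among single members 2 were below UUO in every rUUO sample (5.41%, against 3.68% of all genes). Without UUO replicate 2 there were 4, with Top2a and Kif20a added (10.8%, against 7.87% of all genes). Both shares were near those of all genes, so these counts say little about the list. Ube2c, a mitotic ubiquitin-conjugating enzyme, had 43.5, 21.8, 15.6 and 14.4 FPKM in UUO and 6.47, 9.87 and 8.29 FPKM in rUUO, and Mcm3, of the replicative helicase, had 83.0, 46.6, 45.9 and 47.2 FPKM in UUO and 26.5, 44.1 and 32.1 FPKM in rUUO. With all samples Mki67 and Top2a overlapped, Mki67 with 13.6 to 25.5 FPKM in UUO and 8.70 to 15.7 FPKM in rUUO.

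**Figure D3:**
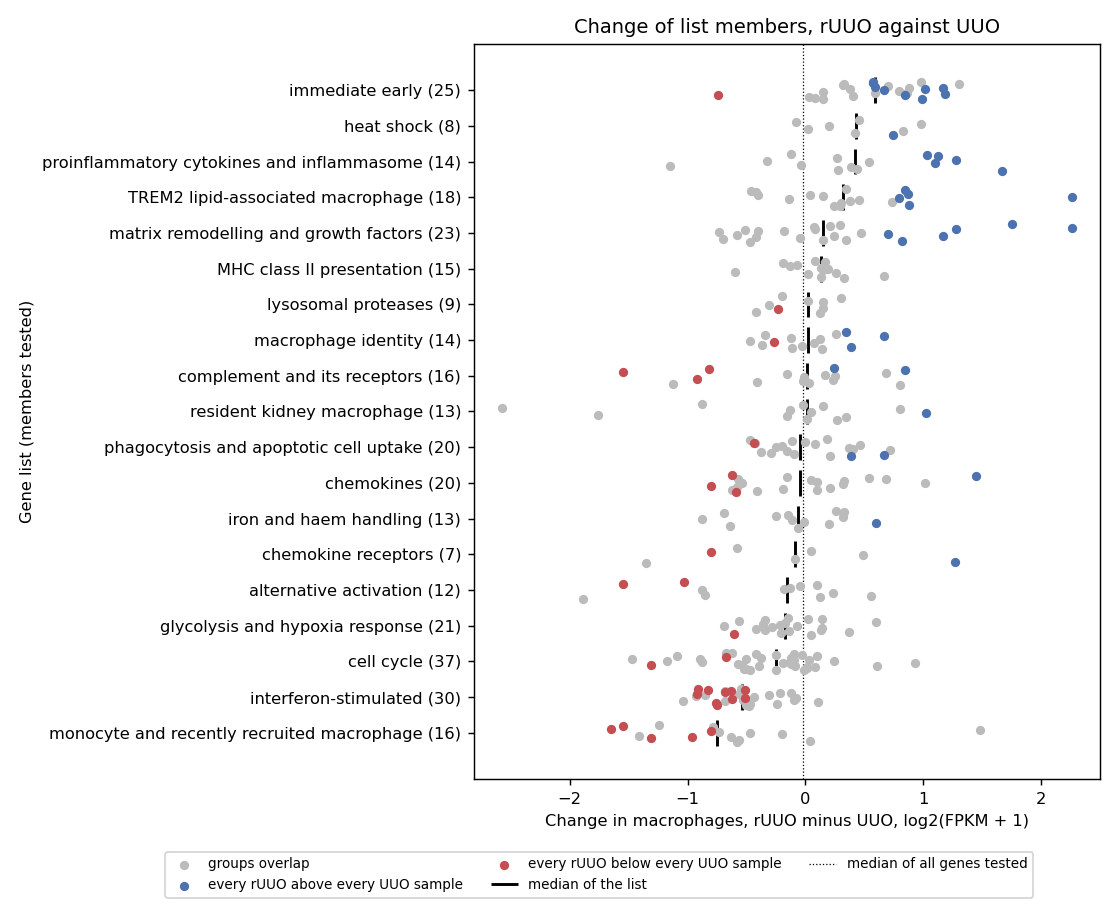
Each point is 1 gene, placed by its log2 change (rUUO minus UUO, x axis, log2 of FPKM + 1) in the row of its list, with the members tested in parentheses; black bars are list medians and the dotted line is the median of all genes tested. Immediate early genes lie almost all to the right (median 0.59), and interferon-stimulated and monocyte genes almost all to the left (medians -0.54 and -0.75).

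Outside these lists, genes were named by rule, as those with the largest log2 changes among called genes whose groups did not overlap. A mean of at least 5 FPKM was asked of the higher group only, so the other group could lie near 0. Large changes and separated groups were thus fixed by the rule and are not a result about these genes. Those higher in rUUO were H2-M2, Pla2g2d, Afmid, Cdc42ep2, Slc46a1, Il2ra and Stard13, beside Mmp12 and 4 copies of Rnu3b. Il2ra, the alpha chain of the interleukin-2 receptor, had 1.2, 0.81, 2.72 and 0.91 FPKM in UUO and 6.73, 5.75 and 10.6 FPKM in rUUO, and sham had 2.00 to 4.47 FPKM (1.88 ± 0.38, SE, limma adjusted p = 4.09e-06 on 4 populations and 0.127 in macrophages). Pla2g2d, a secreted phospholipase A2 of antigen-presenting cells, had 0.04, 0.80, 0.77 and 1.6 FPKM in UUO and 6.79, 13.4 and 8.13 FPKM in rUUO. Cdc42ep2, an effector of the small GTPase CDC42, had 0.83, 0.58, 1.65 and 1.72 FPKM in UUO and 6.15, 7.55 and 10.5 FPKM in rUUO. All 3 genes were at 2.72 FPKM or less in every UUO sample, and sham values of Pla2g2d (1.70 to 8.29 FPKM) lay above every UUO sample and overlapped with rUUO. Slc46a1, a folate transporter, had 0.08, 0.21, 1.19 and 2.12 FPKM in UUO and 7.42, 5.34 and 5.52 FPKM in rUUO, and H2-M2, a non-classical MHC class I gene, had 1.04, 0.85, 0.62 and 0.39 FPKM in UUO and 7.81, 5.08 and 13.1 FPKM in rUUO. Afmid, an enzyme of tryptophan breakdown, had 2.92, 0, 0.90 and 2.27 FPKM in UUO and 13.03, 8.29 and 5.94 FPKM in rUUO. Stard13, a GTPase-activating protein, was separated by a margin of 4.68 against 4.71 FPKM, its highest UUO and lowest rUUO values. The Rnu3b genes encode U3 small nucleolar RNA, and the table lists them under 8 identifiers that fall into 2 sets of 4 with identical values. In the set called higher, UUO replicates 1, 3 and 4 were listed at 0, UUO replicate 2 at 10.9 FPKM and the rUUO samples at 15.9, 21.6 and 17.4 FPKM. The other set had the opposite pattern, with 5.19, 20.2 and 11.5 FPKM in UUO replicates 1, 3 and 4 and 0 in UUO replicate 2 and in every rUUO sample. Each sample thus had values in 1 set only, and since near-identical copies share reads, no direction is given for U3 RNA.

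Those lower in rUUO by the same rule were Hist1h4n, Fcmr, Ecm1, F13a1, Cd300lb, Iglc3, Atg16l2, Polrmt, Trim30c, Ms4a4c, Ccnd3 and Clec4b1. Fcmr, a receptor for IgM, had 5.57, 22.4, 11.2 and 5.93 FPKM in UUO and 0.31, 0.10 and 0.57 FPKM in rUUO (-3.02 ± 0.50, SE, limma adjusted p = 4.44e-05 on 4 populations and 0.089 in macrophages). Fcmr is also a B cell gene, and the B cell markers tested were also lower in rUUO, as given further on. Cd300lb, an activating receptor of myeloid cells, had 26.1, 11.4, 7.55 and 9.49 FPKM in UUO and 3.33, 1.91 and 5.24 FPKM in rUUO, and sham had 1.14 to 1.92 FPKM. Clec4b1, a C-type lectin, had 81.7, 94.6, 119 and 70.7 FPKM in UUO and 30.7, 54.7 and 34.96 FPKM in rUUO, and here sham (71.6 to 145 FPKM) overlapped with UUO. Trim30c, related to the interferon-induced Trim30a, had 17.6, 6.95, 6.06 and 10.3 FPKM in UUO and 3.64, 1.80 and 3.27 FPKM in rUUO. Atg16l2, a relative of the autophagy gene Atg16l1, had 6.97, 7.75, 10.3 and 3.12 FPKM in UUO and 0.94, 1.59 and 2.45 FPKM in rUUO. Ecm1, extracellular matrix protein 1, had 98.2, 24.4, 24.6 and 14.7 FPKM in UUO and 11.3, 7.25 and 7.15 FPKM in rUUO, with UUO replicate 1 far above the rest. Ccnd3, the cell cycle regulator cyclin D3, had 15.6, 13.3, 16.3 and 11.7 FPKM in UUO and 6.16, 4.11 and 5.38 FPKM in rUUO. Polrmt, the mitochondrial RNA polymerase, had 5.47, 16.4, 5.81 and 6.34 FPKM in UUO and 4.02, 1.51 and 1.28 FPKM in rUUO. Its highest value was in UUO replicate 2, the sample with the highest mitochondrial share. Hist1h4n, a replication-dependent histone H4 gene, was listed at 0 in every rUUO sample and had 14.3, 5.96, 15.2 and 2.95 FPKM in UUO.

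The macrophage change differed from the mean change of the PT, endothelial and stromal cells in 55 of 13332 genes (0.413%, limma on 44 samples, 31 genes with a more positive and 24 with a more negative change in macrophages). Of the 86 genes called above, 41 were among them. Genes were tested for their level in macrophages, and a gene near 0 FPKM in the other cells can hardly change there on this scale, so that its difference restates the macrophage change. This concerned 25 of the 55 genes, with means under 1 FPKM over the UUO and rUUO samples of each of the 3 other populations. Those 25 include Mmp12, with means of 0.546 FPKM in PT, 0.951 FPKM in endothelial and 0.635 FPKM in stromal cells, and Il2ra, F13a1, Chil3 and Cd300lb, with means of 0.193 FPKM or less. The difference was 2.20 ± 0.35 (SE, limma adjusted p = 0.000696) for Mmp12, whose log2 changes were 0.12 in PT, 0.22 in endothelial and -0.16 in stromal cells. It was 1.83 ± 0.34 (SE, limma adjusted p = 0.00425) for Il1a, with changes between -0.48 and 0.01 in the other populations. Il1a was at a mean of 2.32 FPKM in endothelial cells and under 0.1 FPKM in the other two. Cdc42ep2, with means of 6.55 FPKM in PT, 60.3 FPKM in endothelial and 29.6 FPKM in stromal cells, differed by 2.73 ± 0.36 (SE), with a change of -1.50 in PT cells. Mmp14, not called in macrophages alone, differed by 1.37 ± 0.31 (SE, limma adjusted p = 0.0352), with changes of -0.33 in PT, -0.62 in endothelial and -0.71 in stromal cells. Its level there was 4.34 FPKM in PT, 23.3 FPKM in endothelial and 334 FPKM in stromal cells on average, so that a change could be measured in each. Among genes lower in rUUO that were measurable in the other cells, Ecm1 (means of 3.10 FPKM in PT, 63.5 FPKM in endothelial and 234 FPKM in stromal cells) differed by -2.25 ± 0.48 and Polrmt (8.35, 5.18 and 6.08 FPKM) by -2.30 ± 0.40 (SE), with changes of 0.22 to 0.65 for Ecm1 and -0.12 to 1.51 for Polrmt. For Fos and Atf3 no difference was called (0.54 ± 0.32 and 0.42 ± 0.39, SE, limma adjusted p = 0.628 and 0.814), and the log2 change of Fos was 1.18 in endothelial cells and that of Atf3 0.42 to 0.78 in the 3 other populations. The number of genes that differed was 19 after rescaling without mitochondrial genes and 7 with a pseudocount of 0.1.

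**Figure D4:**
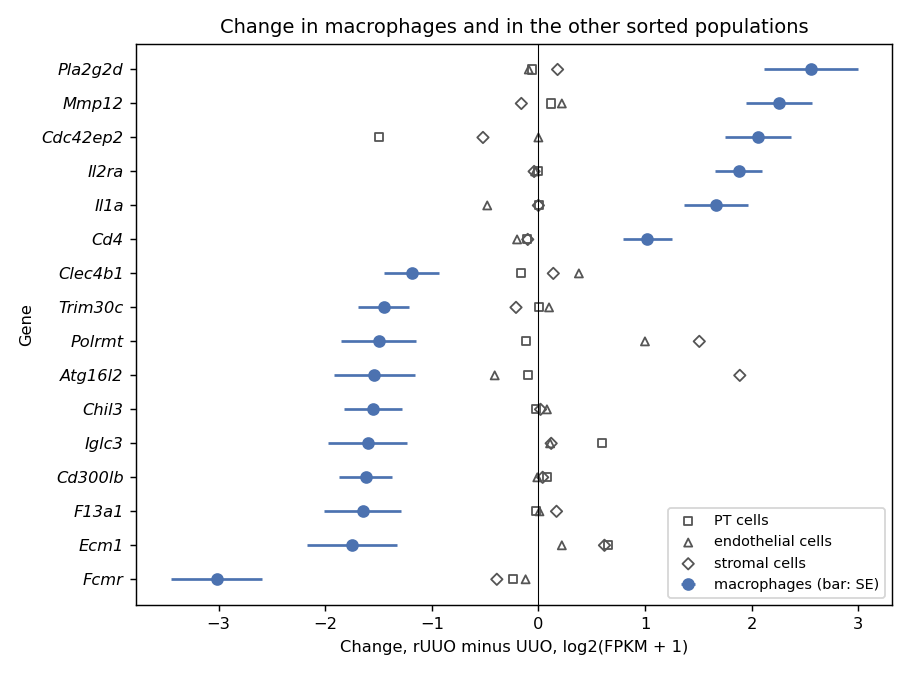
Log2 changes (rUUO minus UUO, log2 of FPKM + 1, x axis) are plotted for named genes called both in macrophages and in the test of the difference, with macrophages as filled circles (bars, SE of the fit on 4 populations) and PT, endothelial and stromal cells as open symbols. The open symbols farther than 0.5 from 0 are those of Cdc42ep2 in PT and stromal cells, Polrmt in endothelial and stromal cells, Atg16l2 in stromal cells, Ecm1 in PT and stromal cells and Iglc3 in PT cells, and the symbols of genes near 0 FPKM in these cells lie near 0 by construction.

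Markers of other cells were detected and their summed levels overlapped between UUO and rUUO in all 11 lists. Single markers were nevertheless separated. Of 15 proximal tubule genes 3 (20%) were below UUO in every rUUO sample and 1 (6.67%) above, against 3.68% and 3.45% of all genes. Of 4 red cell genes 2 (50%) were below. Pax5 of the B cell list and Gzma of the NK cell list were below and called. Among injured tubule genes Havcr1 was below and Krt19 above. The 6 B cell genes were lower in rUUO in every case (median log2 change -1.22), with a summed level of 289.9 to 867 FPKM in UUO, 321 to 395 FPKM in rUUO and 394 to 489 FPKM in sham. In sham Cd79a, Ms4a1 and Pax5 had means of only 1.42, 0.26 and 1.17 FPKM. The sum therefore rests on the other members and is not a level of B cells. Cd79a had means of 12.1 FPKM in UUO and 3.03 FPKM in rUUO, with overlapping groups. The summed level of 268 immunoglobulin genes was 491 to 2039 FPKM in UUO and 546 to 584 FPKM in rUUO, and 7 of the 86 called genes, Iglc3 among them, were immunoglobulin genes. Their part in the values of Fcmr was not tested. The median log2 change of the 5 neutrophil genes tested was -1.19. S100a9, abundant in neutrophils and monocytes, had 56.5, 7.94, 63.2 and 24.7 FPKM in UUO and 13.2, 3.76 and 13.8 FPKM in rUUO. The 4 red cell genes were lower (median -1.66), with sums of 26.7 to 87.1 FPKM in UUO and 11.5 to 42.4 FPKM in rUUO. T cell genes summed to 11.5 to 88.1 FPKM in UUO and 16.7 to 62.1 FPKM in rUUO but to 1.25 to 3.72 FPKM in sham. NK cell genes summed to 2.01 to 23.5 FPKM in UUO and 6.39 to 14.4 FPKM in rUUO, and dendritic cell genes to 18.1 to 52.1 and 36.7 to 53.4 FPKM. Proximal tubule genes summed to 203 to 266 FPKM in UUO and 227 to 228 FPKM in rUUO and to 549.7 to 716 FPKM in sham. Injured tubule genes summed to 48.1 to 80.6 FPKM in UUO and 37.3 to 100.1 FPKM in rUUO, distal nephron genes to 13.6 to 39.4 and 33.2 to 69.8 FPKM, endothelial genes to 45.4 to 53.0 and 39.4 to 80.1 FPKM, and stromal genes to 63.4 to 127 and 61.0 to 118 FPKM.

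**Figure D5:**
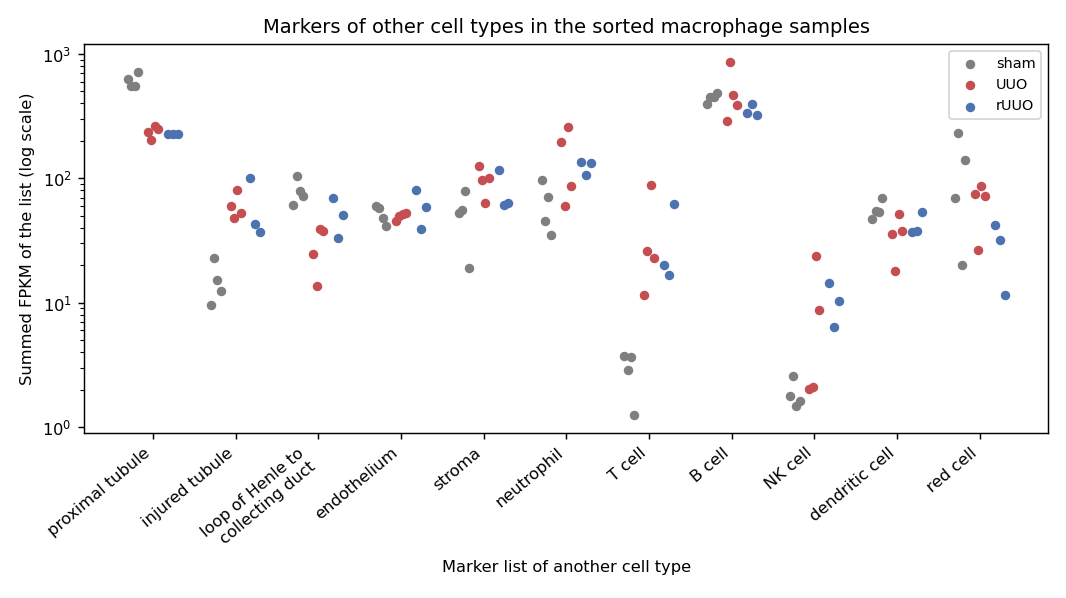
The summed FPKM of each marker list (y axis, log scale) is plotted for 4 sham, 4 UUO and 3 rUUO macrophage samples, 1 point per sample. UUO and rUUO points overlap in every list, the highest B cell value (867 FPKM) is a UUO sample, and T cell markers are lowest in sham.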

How the data were processed

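Sorted macrophage RNA was amplified (Ovation RNA-Seq System V2) before sequencing on an Illumina HiSeq. The authors deposited FPKM values of 53465 genes in a single table, rounded to 2 decimals. The submitters' processing notes name FastQC, RSEM, Bowtie2, DESeq2 and the build mm10 without roles, and versions are not given in the sources used here. FPKM are relative within a sample, so a large mitochondrial share lowers every other gene. Of 46 value columns 44 entered the analysis, and 2 with an identical endothelial UUO name were left out.

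FPKM were converted to log2(FPKM + 1), and genes averaging 1 FPKM or more across the 11 macrophage samples were tested by limma 3.58.1 in R 4.3.3 (intensity trend, Benjamini-Hochberg adjustment, threshold 0.05). All changes are on this log2 scale, which understates those of low genes. The mitochondrial share was compared by an exact permutation test. The difference from the other populations was a limma contrast over 44 samples. It treated them as independent, although same-numbered samples of a group may come from the same mouse. An alternative took the group and replicate number as the mouse and entered it as a random block. The limma fit was tested on simulated data. The gene lists, markers and comparisons were chosen with earlier results of these data known. Named genes were Adgre1, Csf1r and Ptprc, the 12 largest changes in each direction among genes past the threshold that were not predicted genes, did not overlap between groups and had a mean of at least 5 FPKM in the higher group, and members of each list, up to 4 called in each direction and up to 3 not called. As no gene passed in macrophages, this rule was applied to the fit on 4 populations, a choice made after the values were seen, and other list members named because their groups did not overlap were likewise chosen after their values were seen. A few list members are not reported here by name. Alternative settings comprised a smaller pseudocount (0.1), an unfiltered gene set, a filter on 7 samples, rescaling to equal sums (TPM) with or without mitochondrial genes, quantile normalization, fits on 7 samples or on all 4 populations, a block for the replicate number, a fit without intensity trend, an added fold threshold of 1.5, and the omission of each replicate in turn. Sample weights, combinations with the wider fit and the counts of lists without UUO replicate 2 or under other scalings were added after seeing the data. In a series with 1 sorted sample per mouse and population, p values measure the spread between these samples. Other computations used Python 3.11.15 (scipy 1.17.1, pandas 2.3.3, numpy 2.4.6), and figures were drawn in matplotlib 3.10.9.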

Additional observations from a re-analysis of the deposited data

Results flagged for a closer look

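Among named genes in macrophage groups of 4 samples, 17 of 208 groups held a sample whose gap to its nearest neighbour was large for the range of the group, where chance alone gives about 1 in 20. That rate is for independent groups with normally spread values. The 4 Rnu3b copies have identical values and are counted 4 times among the 17, so no excess over chance is read from this count. The UUO samples were C1qa in replicate 2 (176 FPKM), Lgals3 in replicate 2 (33.3 FPKM), Polrmt in replicate 2 (16.4 FPKM), the 4 Rnu3b copies in replicate 2 (10.9 FPKM), Chil3 in replicate 1 (6.96 FPKM), Dusp1 in replicate 1 (255 FPKM), Mcm3 in replicate 1 (83.0 FPKM) and Mrc1 in replicate 3 (235 FPKM). The sham samples were Adgre1 in replicate 3 (247 FPKM), C1qa in replicate 4 (1888 FPKM), Cd81 in replicate 2 (1228 FPKM), Fth1 in replicate 4 (4581 FPKM), Gdf15 in replicate 3 (0.15 FPKM) and Iglc3 in replicate 4 (3.62 FPKM).

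The change from UUO to rUUO differed between macrophages and the mean of the other 3 populations, by limma at an adjusted p under 0.05, for 21 named genes. Of all 55 such genes, 25 had means under 1 FPKM in each of the other populations, Mmp12, Il2ra, Cd4, Fcmr, Iglc3, F13a1, Cd300lb, Chil3, Trim30c and Clec4b1 among them, so that their differences restate the macrophage change. The macrophage change was more positive, on the log2 scale, by 3.52 for each Rnu3b copy of the set called higher, 2.73 for Cdc42ep2, 2.55 for Pla2g2d, 2.20 for Mmp12, 1.90 for Il2ra, 1.83 for Il1a, 1.37 for Mmp14 and 1.15 for Cd4. It was more negative for Fcmr (-2.78), Polrmt (-2.30), Ecm1 (-2.25), Atg16l2 (-2.0), Iglc3 (-1.87), F13a1 (-1.70), Cd300lb (-1.65), Chil3 (-1.58), Trim30c (-1.42) and Clec4b1 (-1.31).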

How the results depend on the processing

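The count of genes past the threshold in macrophages was 0 with a pseudocount of 0.1, a filter on 7 samples, rescaling without mitochondrial genes, a fit on 7 samples or a fold change above 1.5 in addition. It was 1 (higher) without a filter on low values (Igkv6-23) or without an intensity trend (Gm6044), and 2 (both higher, Mmp12 and Gm6044) after rescaling to equal sums or quantile normalization. With sample weights it was 19 (12 higher, 7 lower), and with each replicate left out it was 0 to 13 (0 to 8 higher, 0 to 5 lower). The fit on all 4 populations gave 86 (47 higher, 39 lower), 125 (70 and 55) after quantile normalization, 33 (18 and 15) without mitochondrial genes, 38 (25 and 13) with a pseudocount of 0.1, and 65 to 134 (39 to 82 higher, 21 to 55 lower) with each replicate left out. The 86 calls shared 77 genes with those after quantile normalization and 40 to 76 with those of the leave-one-out fits. The number of genes whose change differed from the other populations was 55, 7 with a pseudocount of 0.1, 19 without mitochondrial genes and 33 to 72 with each replicate left out (33 without rUUO replicate 4, 36 without rUUO replicate 1). With the mouse as a random block it was 59, and all 55 were among them. Same-numbered samples did not deviate together (correlations of -0.04 to 0.07 across genes), and with the replicate block 0 genes passed (smallest adjusted p 0.479, 756 genes at an unadjusted p under 0.05). Of 3016 values of 104 named genes under the alternatives, 2764 kept their direction and side of the threshold, 247 kept their direction and passed it, and 5 turned, all after quantile normalization. They were Csf1r (0.02 in macrophages, 0.01 in the fit on 4 populations), H2-Ab1 (-0.03 and -0.04) and H2-Aa (-0.01 in the fit on 4 populations). The cause of these shifts was not tested. The mitochondrial share was 2.18 to 7.26 percentage points lower in rUUO with each replicate left out (differences of -7.26 to -2.18). Depth is unknown in counts, and genes near 1 FPKM are the least certain.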
